A study of Mus musculus with 9 samples.

Results

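Long noncoding RNAs of the nucleus or of neural tissue were followed here by name in cells sorted from the mouse retina. The 9 names chosen were Malat1, Neat1, Miat, Snhg11, Snhg1, Snhg12, Gas5, Rmst and Six3os1. Of these, 7 were among the 15228 genes with a level in the deposited table, and all 7 passed the filter on low levels. Miat and Rmst were not analysed here. The cells were sorted by flow cytometry as retinal ganglion cells (RGCs), the neurons whose axons form the optic nerve, as positive for the surface protein CD90.2 and negative for 3 other surface antigens. All groups were wild-type mice, which the study's methods give as C57BL/6J of both sexes, aged 6 to 8 weeks at surgery. Uninjured retinas made up the group Ctrl. The group ONC was collected at day 3 after optic nerve crush and had received PBS as vehicle by injection into the eye. The group TPEN was collected at day 3 after the same crush and had received TPEN, a membrane-permeable chelator of zinc, at 100 μM into the eye directly after the crush. No injection is stated for Ctrl, so where ONC or TPEN differed from Ctrl, crush and injection cannot be told apart. Each group had 3 libraries. Whether separate mice stand behind the libraries of a group is not given in the sources used here, so p-values measure only the spread between these libraries.

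Long noncoding RNAs carry no long conserved reading frame and act, where a role is known, as RNA. Malat1 gathers in nuclear speckles, bodies rich in splicing factors, and Neat1 is the scaffold on which paraspeckles form, bodies that hold RNA-binding proteins and edited RNAs. Gas5, Snhg1, Snhg11 and Snhg12 host small nucleolar RNAs (snoRNAs) in their introns, and those snoRNAs guide the chemical modification of other RNAs once the host has been spliced. The spliced Gas5 and Snhg1 transcripts are known for short-lived RNA, removed by nonsense-mediated decay while ribosomes read them. Six3os1 is transcribed from the strand opposite to Six3, a homeobox gene of the eye field, and is known from the developing retina.

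Levels were deposited as RPKM, reads scaled to exon length and to the reads of the library. Whole reads could be worked out from the steps of the values, and a library held from 20077226 to 23109754 reads in Ctrl, from 22967138 to 22986065 in ONC and from 19946993 to 22217283 in TPEN. The sorted cells did not look like pure RGCs by their markers. Summed over 7 listed RGC markers, the level was 327 to 337 RPKM in Ctrl, 343 to 364 in ONC and 263 to 276 in TPEN. The sums over 5 rod markers were far larger, at 17719 to 18584 RPKM in Ctrl, 15408 to 15653 in ONC and 16698 to 16842 in TPEN. Of the RGC markers, Nefl ranked 153 among all genes, but Rbpms ranked 13805, Slc17a6 14020 and Pou4f1 14252. The name RGCs thus stands for the gate, and in such mixed samples fewer cells of a type and less RNA per cell cannot be told apart.

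A few sequences place these RNAs. The following 60 bases of Malat1 hold the longest run of A in its annotated transcript, 12 bases in capitals at transcript bases 6674 to 6685 of 6983, and are shown because the mature RNA has no poly(A) tail while the libraries were made with an mRNA kit. They lie at chr19:5795964-5796023 on the minus strand of GRCm38.
Malat1 A-rich tract: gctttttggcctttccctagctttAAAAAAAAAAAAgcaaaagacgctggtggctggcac
The next 60 bases end the short annotated Neat1 transcript of 3004 bases, at chr19:5842307-5842366 on the minus strand. The poly(A) signal is in capitals, and the stretch is shown because the short and the long Neat1 transcript, the latter of 20771 bases, part here.
Neat1 end of the short transcript: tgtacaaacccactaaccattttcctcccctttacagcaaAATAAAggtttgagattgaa

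The starts of the snoRNA hosts are shown as 120 bases each, 70 before the annotated start and 50 from it on, from RefSeq on GRCm38.p6. 6 of the 7 members were in the promoter table, and Neat1 was not. Capitals mark the longest run of C and T within 15 bases of the start on either side, since many snoRNA hosts begin with such a run, the terminal oligopyrimidine tract of RNAs whose translation follows growth signals. The windows lie on the plus strand at chr4:132308608-132308727 for Snhg12, at chr19:8723417-8723536 for Snhg1, at chr1:161035096-161035215 for the second listed start of Gas5 and at chr2:158375643-158375762 for Snhg11.
Snhg12: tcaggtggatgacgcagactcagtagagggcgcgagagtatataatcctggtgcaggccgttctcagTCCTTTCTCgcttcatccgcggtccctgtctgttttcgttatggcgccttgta
Snhg1: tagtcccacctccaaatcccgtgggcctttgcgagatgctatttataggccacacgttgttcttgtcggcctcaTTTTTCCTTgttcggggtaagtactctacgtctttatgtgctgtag
Gas5: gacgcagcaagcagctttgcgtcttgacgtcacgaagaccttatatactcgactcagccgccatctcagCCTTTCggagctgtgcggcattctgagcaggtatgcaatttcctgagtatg
Snhg11: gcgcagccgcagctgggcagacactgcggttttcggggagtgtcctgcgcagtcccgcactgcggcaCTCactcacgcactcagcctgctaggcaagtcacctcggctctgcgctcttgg
The run was 9 bases long in Snhg12 and in Snhg1, a length reached by 7.735% of 32851 promoters, and 6 bases at the second start of Gas5, a length reached by 29.2%. At the first listed start of Gas5, not shown, and in Snhg11 it was 3 bases, which 88.55% of promoters reached. The hosts thus differed in this feature, and so did both starts of Gas5.

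Since TPEN binds metal ions, the full promoter windows, 250 bases before to 50 after the start, were also searched on both strands for the core of the metal response element. TGCGCNC stood in 15.39% of all promoters, and among the members in Snhg11 and at the first listed start of Gas5. In the Snhg11 window it read as the capitals below.
Snhg11, TGCGCNC in capitals: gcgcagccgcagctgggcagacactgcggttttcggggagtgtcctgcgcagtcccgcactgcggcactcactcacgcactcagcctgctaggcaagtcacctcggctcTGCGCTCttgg
The other spelling of the core, TGCACNC, stood in 12.59% of promoters and in no window of these members. The cyclic AMP response element TGACGTCA was found at the second start of Gas5 and in 1.79% of all promoters. Neither the AP-1 site TGANTCA, at 7.808% of promoters, nor the ATF4 composite site TGATGNAAT, at 0.965%, was in a window of these members. These are matches of letters and not measured binding.

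By mean level per length over the 9 libraries, the members spread over most of the table. Malat1 ranked 158 of 15228 genes and held 0.146% to 0.189% of all reads of a library, and the 7 members together held 0.160% to 0.207%. Snhg12 ranked 2902, Gas5 4396, Snhg11 6763, Snhg1 8146, Neat1 10558 and Six3os1 11547. In Ctrl and TPEN the order of the levels was Malat1, Snhg12, Gas5, Snhg11, Snhg1, Neat1 and Six3os1. All neighbours in that order had separate libraries except Neat1 and Six3os1 in Ctrl. In ONC, Snhg1 stood before Snhg11, and the libraries of that pair overlapped. By its level only Malat1 was abundant in these cells, since the other 6 lay at 18.4 RPKM or below in every library.

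**Figure D1:**
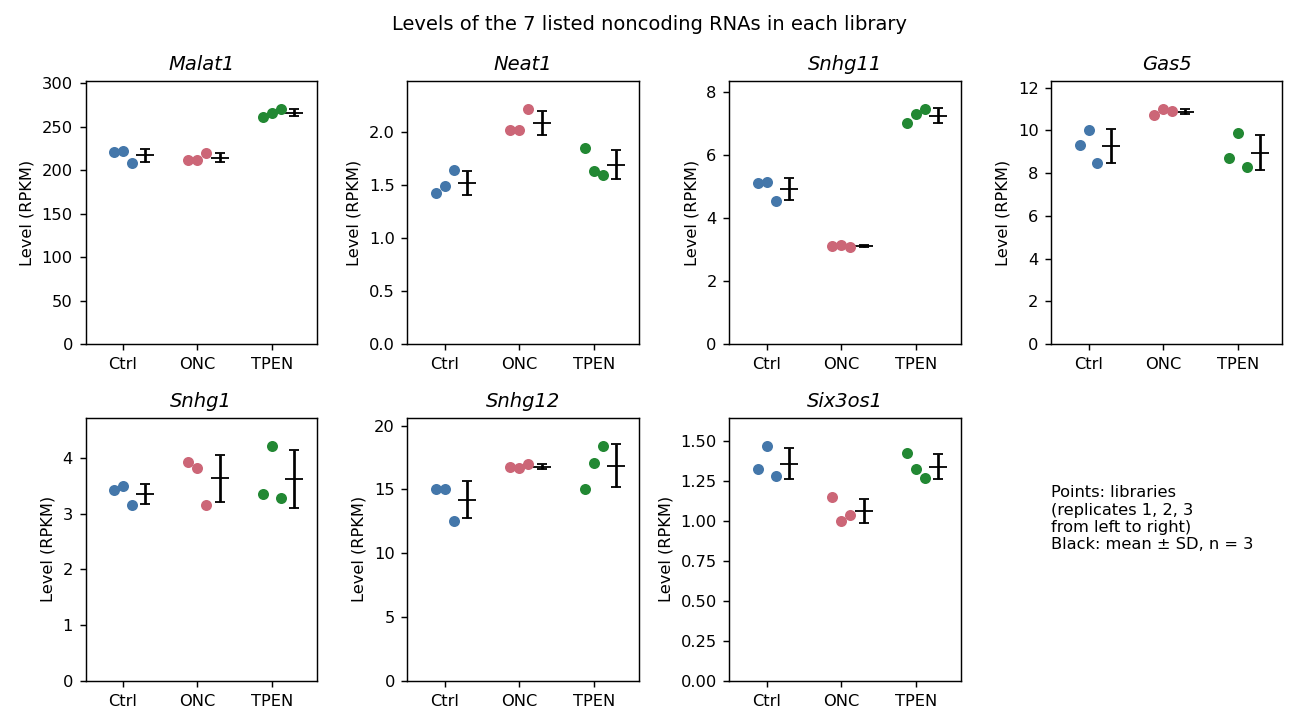
Level in RPKM of each of the 7 noncoding RNAs in every library of Ctrl, ONC and TPEN, with a linear axis from 0 in each panel. Points are libraries and black marks are the mean ± SD (n = 3). Snhg11 falls into 3 separate groups, with ONC lowest near 3.12 RPKM and TPEN highest near 7.25 RPKM.

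Differences were tested with limma on log2(RPKM + 0.1) over 13566 genes, and a gene was called at an adjusted p under 0.05 (Benjamini-Hochberg over all genes tested). In ONC/Ctrl, 1 member was higher (Neat1) and 1 lower (Snhg11), against 11.7% and 6.97% of all genes tested. In TPEN/ONC, 2 members were higher, Malat1 and Snhg11, against 3.24% of all genes. None was lower by the limma test, against 4.14%. At an unadjusted p under 0.05, 2 were lower (Gas5 and Neat1), and limma voom on the whole reads called the same 2 genes. Over the 13566 genes, voom called 948 lower, and the share at an unadjusted p was not counted. In TPEN/Ctrl, the higher members were again 2, Malat1 and Snhg11, against 8.36%. The lower members were 0 by limma, by the unadjusted p and by voom. Limma called 5.01% of all genes lower, and voom 947 genes. With a change of at least 1.5-fold as a further condition, only Snhg11 was called in each of ONC/Ctrl and TPEN/ONC, against 5.34% and 2.03% of all genes, and none was in TPEN/Ctrl, against 3.91%, where Snhg11 was 1.47-fold higher in the means. The libraries of the groups compared did not overlap for 5 of 7 members in ONC/Ctrl, for 5 in TPEN/ONC and for 3 in TPEN/Ctrl, where the shares over all genes were 36.5%, 28.0% and 31.3%. The median log2 fold change of the members was 0.11 in ONC/Ctrl, -0.00050 in TPEN/ONC and 0.15 in TPEN/Ctrl, beside 0.017, -0.011 and 0.012 for all genes. The comparisons share libraries with each other, so their values stand side by side and are not independent.

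**Figure D2:**
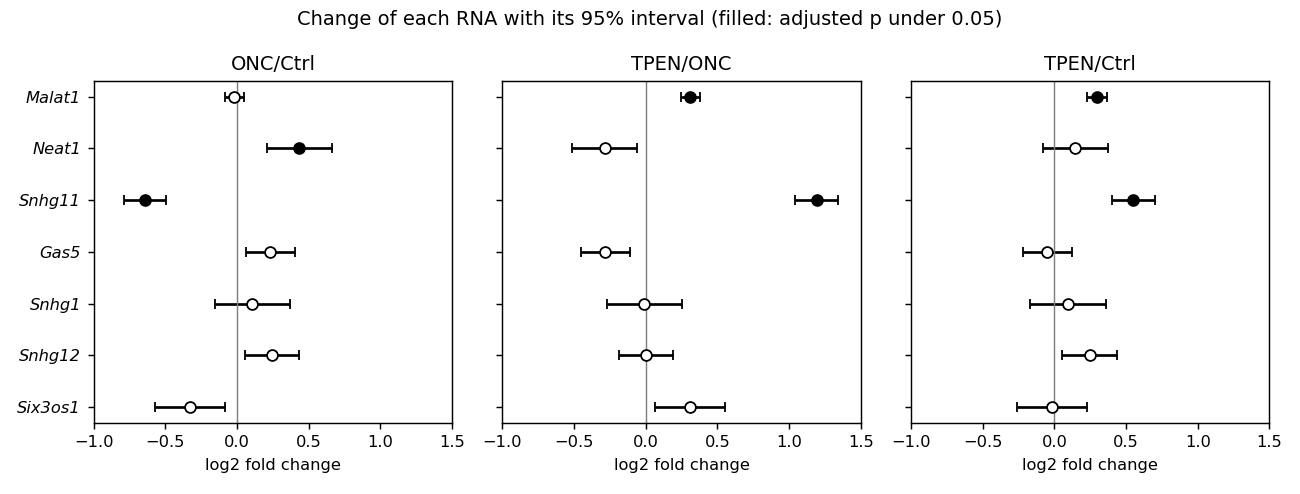
Log2 fold change of each member on the log2(RPKM + 0.1) scale in ONC/Ctrl, TPEN/ONC and TPEN/Ctrl, with its 95% interval from the limma fit, where filled points passed an adjusted p of 0.05. Snhg11 is filled in all 3 panels, at -0.64, 1.19 and 0.55, while the intervals of Snhg1 span 0 throughout.

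Snhg11 was the member that changed most. It is a snoRNA host found mainly in neurons of the brain, and it lies on chromosome 2 (158375638 to 158386145, plus strand, GRCm38), with 2 snoRNA genes inside it in GENCODE M21, which types the gene as protein coding. Its level was 5.12, 5.14 and 4.54 RPKM in the Ctrl libraries, 3.11, 3.16 and 3.09 RPKM in ONC and 7.01, 7.29 and 7.45 RPKM in TPEN. All ONC libraries lay below all Ctrl libraries, and all TPEN libraries lay above both. The group means were 4.93 ± 0.343, 3.12 ± 0.0366 and 7.25 ± 0.224 RPKM (SD, n = 3 each). In ONC/Ctrl, Snhg11 fell by 0.64 on the log2 scale (adjusted p = 0.000118 by limma, standard error 0.066), a mean 1.58-fold lower. In TPEN/ONC it rose by 1.19 (adjusted p = 9.11e-06), 2.33-fold in the means, and 10 of the 13566 genes tested had a larger log2 fold change. In TPEN/Ctrl it rose by 0.55 (adjusted p = 0.000511). No other listed gene overlaps Snhg11, and its call by the adjusted p held under 17 of 17 alternative fits in each comparison, with log2 fold changes of 1.003 to 1.22 in TPEN/ONC.

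The genes nearest to Snhg11 in pattern were taken as those with the smallest root mean square difference of the centred log2 levels over the 9 libraries. They were Meg3, an imprinted long noncoding RNA rich in neurons, with a difference of 0.11, and Ptprt, a receptor tyrosine phosphatase of neurons, with 0.12. Meg3 was at 16.1 ± 0.756 RPKM in Ctrl, 11.2 ± 0.200 in ONC and 21.8 ± 0.268 in TPEN, and Ptprt at 1.41 ± 0.0811, 0.925 ± 0.102 and 2.00 ± 0.155 RPKM (SD, n = 3 each). Both had their lowest mean in ONC and their highest in TPEN, which follows from choosing them for likeness to Snhg11. The next listed genes on either side of Snhg11 were another snoRNA host, Snhg17, 14058 bases away, and Ralgapb, 23703 bases away. In TPEN/ONC these had log2 fold changes of 0.076 and 0.11, with adjusted p of 0.786 and 0.416 by limma. Cell type markers also moved between these groups. Summed over 5 amacrine markers, the level was 31.3 to 33.2 RPKM in Ctrl, 26.7 to 27.9 in ONC and 31.1 to 33.2 in TPEN, and over 4 cone markers 96.9 to 102, 84.0 to 91.8 and 147 to 150 RPKM. Of the 3 amacrine markers tested, 1 was called lower in ONC/Ctrl. The rod sums given above were lowest in ONC, and all 5 rod markers were called lower in ONC/Ctrl. In TPEN/ONC, 2 rod markers were called higher and 0 lower. Other cell types moved otherwise: 5 Müller glia markers summed to 313 to 326 RPKM in Ctrl, 247 to 250 in ONC and 216 to 228 in TPEN. All 4 cone markers were called higher in TPEN/ONC, and of the 4 RGC markers tested 1 was higher and 3 were lower. In ONC/Ctrl, 2 of these RGC markers were called higher and 0 lower. No listed marker of these cells was at 0 in all libraries, and the part of the cell mixture in the Snhg11 change was not tested.

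Malat1, the speckle RNA, was higher with TPEN than in both groups without it. It lies on chromosome 19 (5795690 to 5802672, minus strand). The Ctrl libraries were at 221, 222 and 208 RPKM, the ONC libraries at 211, 211 and 220 RPKM and the TPEN libraries at 262, 266 and 270 RPKM. Ctrl and ONC overlapped, whereas every TPEN library lay above both. In ONC/Ctrl the log2 fold change was -0.018, with a 95% interval from -0.087 to 0.052 (limma adjusted p = 0.745). In TPEN/ONC Malat1 rose by 0.31 (standard error 0.031, adjusted p = 0.000412), and in TPEN/Ctrl by 0.29 (adjusted p = 0.000206). That is 24.1% and 22.6% in the means, under the 1.5-fold mark. With 29214 to 41300 reads per library, Malat1 had the smallest spread of the members within groups, a residual SD of 0.037 on the log2 scale beside 0.110 for the median gene. In ONC/Ctrl it was called under quantile normalization, in the same direction, with a log2 fold change of -0.10 and an adjusted p of 0.0138.

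Nearest to Malat1 in pattern were Herc1, a very large ubiquitin ligase, and Rpgr, a protein of the photoreceptor connecting cilium, with differences of 0.030 and 0.031 over the 9 libraries. Herc1 was at 4.29, 4.38 and 5.23 RPKM in Ctrl, ONC and TPEN, and Rpgr at 19.9, 19.6 and 23.6 RPKM. Both had their highest mean in TPEN, which follows from choosing them for likeness to Malat1. 3 short genes lie wholly within Malat1, and strand use in counting is not stated in the sources used here, so reads of Malat1 and of these genes may be shared. Gm37376, on the opposite strand, had 12009 to 15690 reads over 453 bases, or 1427, 1380 and 1546 RPKM in the group means. In TPEN/ONC its log2 fold change was 0.16 (adjusted p = 0.0456). Gm20417, also opposite, had 0.78 (adjusted p = 0.000107), and Gm27694, on the same strand, 0.34 (adjusted p = 0.0447). All 3 were called higher in TPEN/ONC, by unequal amounts. Since every base of them lies in Malat1 exons, they are not separate support for its rise. The cone and rod markers given above also differed between these groups, and their part in the Malat1 change was not tested.

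Neat1, the paraspeckle scaffold, was higher after crush with vehicle than in uninjured retinas. It lies on the same chromosome (5824708 to 5845478, minus strand), 22036 bases from Malat1. Its level was 1.42, 1.50 and 1.64 RPKM in Ctrl, 2.02, 2.02 and 2.22 RPKM in ONC and 1.85, 1.64 and 1.60 RPKM in TPEN. ONC lay above both other groups, which overlapped each other. In ONC/Ctrl Neat1 rose by 0.43 (adjusted p = 0.0145 by limma, standard error 0.10), 37.2% in the means. The call was lost without Ctrl replicate 1 (adjusted p = 0.0553) and without ONC replicate 3 (adjusted p = 0.0566). In TPEN/ONC its log2 fold change was -0.29, with an interval from -0.51 to -0.06 and an adjusted p of 0.129, and in TPEN/Ctrl it was 0.15 (adjusted p = 0.400). The deposited values divide its 662 to 1058 reads per library by the 20771 bases of the long transcript. Divided by the 3004 bases of the short transcript, the same reads gave 10.5, 14.4 and 11.7 RPKM in Ctrl, ONC and TPEN, so the rank of Neat1 depends on which transcript the reads came from. The table holds no value that separates the transcripts.

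3 short genes annotated within Neat1 on its own strand had values of their own. Gm28006 rose by 0.50 in ONC/Ctrl (limma adjusted p = 0.00914) and Gm27533 by 0.73 (adjusted p = 0.0471, with 12 to 39 reads per library). Gm27505 had a log2 fold change of 0.19 (adjusted p = 0.626). Since these lie in Neat1 exons, they are not separate support for its rise. Nearest in pattern were Gm17383, with a difference of 0.040 over the 9 libraries, and Spata5, an ATPase of ribosome maturation, with 0.059. Spata5 was at 5.49 ± 0.437 RPKM in Ctrl, 7.54 ± 0.200 in ONC and 6.10 ± 0.213 in TPEN. Markers of microglia and macrophages moved between the same groups. Their summed level over 7 listed genes was 3.46 to 4.24 RPKM in Ctrl, 36.5 to 37.7 in ONC and 18.01 to 20.8 in TPEN, and all 7 were called higher in ONC/Ctrl. The sum over 2 astrocyte markers was 3.54 to 4.32 RPKM in Ctrl, 23.1 to 24.2 in ONC and 14.4 to 16.5 in TPEN. The RGC sum given above was also highest in ONC, while those of amacrine cells, rods, cones and Müller glia were lower in ONC than in Ctrl. The part of these cell types in the Neat1 change was not tested.

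Malat1 and Neat1 changed unequally although they are neighbours. Within a library, the log2 ratio Malat1/Neat1 was 7.07 ± 0.146 in Ctrl, 6.62 ± 0.0398 in ONC and 7.21 ± 0.128 in TPEN (SD, n = 3 each). All ONC ratios, 6.57 to 6.64, lay below the 6.90 to 7.18 of Ctrl and the 7.07 to 7.31 of TPEN. An exact permutation test over 280 arrangements, which compared the variation between groups with that within them, gave p = 0.0107, adjusted to 0.0402 over 5 ratios. For a single pair of groups the smallest exact p is 0.1. Without each library in turn the unadjusted exact p was 0.00714 to 0.025. Adjusted over the 5 ratios, the exact permutation p without 1 library was 0.0357 to 0.0893 and under 0.05 for 3 of the 9 libraries left out, namely Ctrl replicate 1, ONC replicate 1 and TPEN replicate 1, so the adjusted call was lost without any of the other 6.

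**Figure D3:**
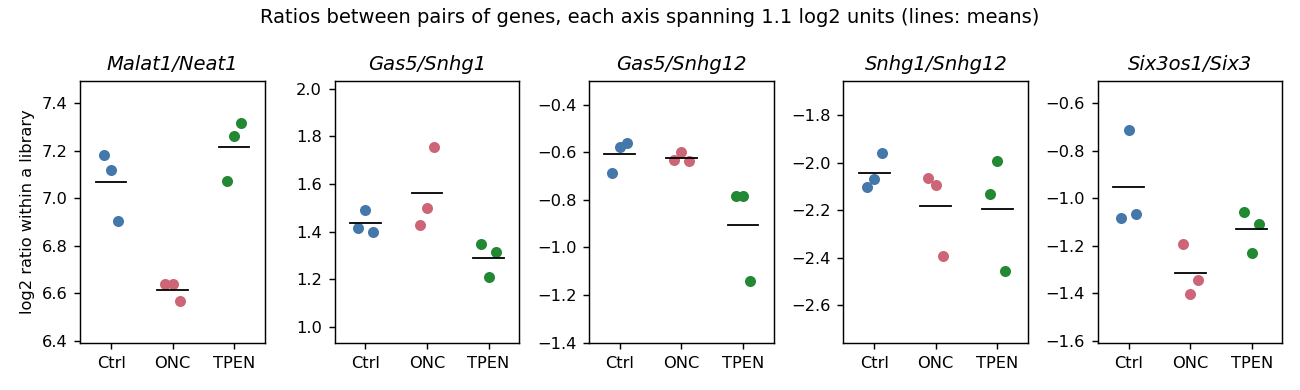
Log2 ratio between 2 genes within each library for the 5 ratios tested, by group, where lines are group means and each axis spans 1.1 log2 units. Malat1/Neat1 separates ONC, at 6.57 to 6.64, from the other groups, and Gas5/Snhg12 is lowest in TPEN, with a mean of -0.90.

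Of the snoRNA hosts Gas5, Snhg12 and Snhg1, none passed the limma test in any comparison. At an unadjusted p under 0.05, Gas5 passed in ONC/Ctrl and TPEN/ONC and Snhg12 in ONC/Ctrl and TPEN/Ctrl. Gas5, named for its build-up in growth-arrested cells, lies on chromosome 1 (161034422 to 161038539, plus strand) with 10 snoRNA genes inside. It was at 9.30, 10.02 and 8.48 RPKM in Ctrl, 10.7, 10.99 and 10.9 RPKM in ONC and 8.69, 9.86 and 8.29 RPKM in TPEN. The ONC libraries lay above those of both other groups. The log2 fold change was 0.23 in ONC/Ctrl (adjusted p = 0.0648 by limma, standard error 0.076) and -0.28 in TPEN/ONC (adjusted p = 0.0575), with intervals from 0.06 to 0.40 and from -0.45 to -0.11. Both were within reach of the threshold: voom on the whole reads gave adjusted p of 0.0165 and 0.00778. In TPEN/Ctrl the value was -0.05 (adjusted p = 0.729).

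Snhg12, on chromosome 4 (132308678 to 132311024, plus strand) with 5 snoRNA genes inside, had the highest level per length of the hosts. The order of the hosts depends on the lengths used, 1626 bases for Snhg12, 3760 for Gas5, 2969 for Snhg1 and 8521 for Snhg11. That of Snhg1 covers the whole gene with its introns, so its level is not one of spliced RNA alone. Those of Gas5 and Snhg12 also take in whole listed snoRNA genes, so the same limit holds for their levels. The level of Snhg12 was 15.04, 15.01 and 12.6 RPKM in Ctrl, 16.7, 16.7 and 16.98 RPKM in ONC and 15.05, 17.1 and 18.4 RPKM in TPEN. The log2 fold change was 0.25 in ONC/Ctrl (limma adjusted p = 0.0748, and 0.0366 by voom) and 0.24 in TPEN/Ctrl (adjusted p = 0.0911). In TPEN/ONC it was -0.00050, with an interval from -0.19 to 0.19 (adjusted p = 0.9989). Both crush groups thus had a mean of 16.8 RPKM, beside 14.2 RPKM in Ctrl.

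Snhg1, on chromosome 19 (8723475 to 8726443, plus strand) with 8 snoRNA genes inside, had the fewest reads of the members, 188 to 278 per library, and the largest spread within groups, a residual SD of 0.155. It was at 3.43, 3.50 and 3.15 RPKM in Ctrl, 3.93, 3.83 and 3.15 RPKM in ONC and 3.35, 4.21 and 3.28 RPKM in TPEN, and all groups overlapped. Its log2 fold changes were 0.11, -0.011 and 0.095 in ONC/Ctrl, TPEN/ONC and TPEN/Ctrl, with limma adjusted p of 0.594, 0.973 and 0.661. The interval in ONC/Ctrl, from -0.16 to 0.37, would still hold a rise like that of Gas5. Slc3a2, 106 bases away and a subunit of amino acid transporters, had log2 fold changes of 0.12, -0.15 and -0.030 (adjusted p = 0.136, 0.112 and 0.755).

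Set against each other, the hosts did not keep one ratio. The log2 ratio Gas5/Snhg12 was -0.61 ± 0.0682 in Ctrl, -0.62 ± 0.0213 in ONC and -0.90 ± 0.205 in TPEN, where the libraries lay between -1.14 and -0.79 and so below all others (exact permutation p = 0.0286, adjusted 0.0402). Gas5/Snhg1 was 1.44 ± 0.0502, 1.56 ± 0.173 and 1.29 ± 0.0732, again lowest in TPEN (exact permutation p = 0.025, adjusted 0.0402). Snhg1/Snhg12 was -2.04 ± 0.0745, -2.18 ± 0.182 and -2.19 ± 0.237 (exact permutation p = 0.511). The first of these ratios lost an unadjusted p under 0.05 without Ctrl replicate 2 or 3 or any 1 of the ONC libraries, at exact p of 0.0571 to 0.104. The second lost it without Ctrl replicate 1 or 3 or TPEN replicate 2 or 3, at 0.0536 to 0.121. Adjusted over the 5 ratios, each stayed under 0.05 in 1 of the 9 fits that left out a library. 2 listed snoRNA genes lie within each of Gas5, Snhg1 and Snhg12, and the lowest limma adjusted p among these 6 was 0.153. Every base of them lies in exons of the host on the same strand. Their reads may thus be reads of the host, and the snoRNAs themselves cannot be read from these values.

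Six3os1, the partner of Six3, was the lowest member and was lowest after crush with vehicle. It lies on chromosome 17 (85600651 to 85618398, minus strand). The level was 1.32, 1.47 and 1.28 RPKM in Ctrl, 1.15, 1.0002 and 1.04 RPKM in ONC and 1.42, 1.32 and 1.27 RPKM in TPEN. Every ONC library lay below all others, and Ctrl and TPEN overlapped. The log2 fold change was -0.33 in ONC/Ctrl (adjusted p = 0.0665 by limma, standard error 0.11), 0.31 in TPEN/ONC (adjusted p = 0.129) and -0.018 in TPEN/Ctrl (adjusted p = 0.944). With 273 to 403 reads per library, none of these passed the limma test. Voom on the whole reads called both changes that involve ONC, at adjusted p of 0.00789 and 0.0256, and quantile normalization called the first, at 0.0218. Six3 itself, which shares 106 exon bases with Six3os1 on the opposite strand, was at 2.73 ± 0.227, 2.78 ± 0.0293 and 3.05 ± 0.190 RPKM and was not called. The log2 ratio Six3os1/Six3 was -0.95 ± 0.208 in Ctrl, -1.31 ± 0.107 in ONC and -1.13 ± 0.0880 in TPEN (exact permutation p = 0.0321, adjusted 0.0402). The unadjusted p rose to between 0.0536 and 0.107 without Ctrl replicate 2, ONC replicate 2 or 3 or TPEN replicate 3, and the adjusted one stayed under 0.05 in 1 of the 9 fits that left out a library. Of the listed genes next to a member, other than members, 1 was called: Camkmt, a calmodulin methyltransferase 142512 bases from Six3os1, rose by 0.54 in TPEN/ONC (adjusted p = 0.0259).

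Genes that work with these RNAs were grouped into lists by function. Among 11 other noncoding snoRNA hosts tested, 2 rose in ONC/Ctrl, where 11.7% of all genes did. These were Snhg15 and Snhg5, by 0.68 and 0.21 on the log2 scale (limma adjusted p = 0.0181 and 0.0127). The same pair rose in TPEN/Ctrl, where 8.36% of all genes did, by 0.82 and 0.33 (adjusted p = 0.010 and 0.00148). Snhg15 was at 4.27 ± 1.15, 6.76 ± 0.141 and 7.49 ± 0.987 RPKM in Ctrl, ONC and TPEN, and Snhg5 at 14.3 ± 0.708, 16.5 ± 0.133 and 17.98 ± 0.786 RPKM. The list as a whole had median log2 fold changes of 0.029 in ONC/Ctrl and -0.0083 in TPEN/Ctrl, close to the 0.017 and 0.012 of all genes.

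Of 12 snoRNP proteins tested, which package and mature snoRNAs, 3 rose in ONC/Ctrl, where 11.7% of all genes did. These were Nhp2, a core protein of H/ACA snoRNPs (log2 fold change 0.40, limma adjusted p = 0.0473), Nolc1, a chaperone of their assembly (0.23, adjusted p = 0.00107), and Nop56, a core protein of C/D snoRNPs (0.17, adjusted p = 0.0103). The list had a median of 0.16 there. Nolc1 also rose in TPEN/Ctrl, by 0.14 (adjusted p = 0.0279). Of 14 factors of nonsense-mediated decay, 1 rose in ONC/Ctrl, and in TPEN/ONC 2 fell, where 4.14% of all genes did. Upf3a rose by 0.16 in ONC/Ctrl (adjusted p = 0.0128) and fell by 0.18 in TPEN/ONC (adjusted p = 0.0159). Casc3, a protein of the exon junction complex, fell by 0.12 in TPEN/ONC (adjusted p = 0.0278) and by 0.13 in TPEN/Ctrl (adjusted p = 0.0159).

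Of 14 paraspeckle proteins, 3 rose and 1 fell in ONC/Ctrl. Pspc1, named after the bodies, rose by 0.25 (limma adjusted p = 0.00354), the RNA-binding protein Hnrnpa1 by 0.10 (adjusted p = 0.0270) and the chromatin remodeller Smarca4 by 0.10 (adjusted p = 0.0328). Tardbp fell by 0.13 (adjusted p = 0.0434). Smarca4 fell by 0.12 in TPEN/ONC (adjusted p = 0.0260). Over all genes, 11.7% rose and 6.97% fell in ONC/Ctrl. Of 19 proteins of speckles and splicing, 1 rose and 5 fell in ONC/Ctrl, with a list median of -0.057, and 8 fell in TPEN/Ctrl, where 5.01% of all genes did. Of these 8, the calls of Srsf2, Srsf5, Tra2a and Luc7l3 were each lost without any 1 of 5 or more libraries. Among them, the splicing factor kinase Clk1 fell by 0.16 in ONC/Ctrl, by 0.14 in TPEN/ONC and by 0.30 in TPEN/Ctrl (adjusted p = 0.00362, 0.0230 and 0.000131), and Pnisr by 0.18, 0.10 and 0.28 (adjusted p = 0.000780, 0.0418 and 7.20e-05).

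Of 11 other long noncoding RNAs of neural tissue or the nucleus, 3 fell in ONC/Ctrl. Meg3 fell by 0.51, Vax2os, antisense to an eye homeobox gene, by 0.46 and Mir124-2hg, a host of the neuronal miR-124, by 0.42 (limma adjusted p = 2.85e-05, 6.53e-05 and 1.40e-05). In TPEN/ONC Meg3 rose by 0.95 and Mir124-2hg by 0.16 (adjusted p = 1.93e-06 and 0.0141), where the call of Mir124-2hg was lost without ONC replicate 1 or TPEN replicate 3. In TPEN/Ctrl Meg3 rose by 0.44, while Firre fell by 0.22, Mir124-2hg by 0.25 and Vax2os by 0.30, and these 4 calls held without each library. Over the 1286 other tested genes that GENCODE M21 types as long noncoding, 90 rose and 133 fell in ONC/Ctrl, 47 rose and 27 fell in TPEN/ONC, and 68 rose and 73 fell in TPEN/Ctrl. As shares, 6.998% rose and 10.3% fell in ONC/Ctrl, beside 11.7% and 6.97% of all genes. In TPEN/ONC the shares were 3.65% and 2.10%, beside 3.24% and 4.14%, and in TPEN/Ctrl 5.29% and 5.68%, beside 8.36% and 5.01%. Their medians were -0.052, 0.037 and -0.016. Of 7 eye-field factors, listed for Six3os1 and for Sox2, Pax6 rose by 0.37 in TPEN/ONC (adjusted p = 0.0105), where 3.24% of all genes rose. 3 of the 7, Pax6, Six6 and Sox2, rose in TPEN/Ctrl, beside 8.36% of all genes, by 0.29, 0.41 and 0.32 (adjusted p = 0.0174, 0.0274 and 0.0422). Of the 48 calls among genes of the 7 lists over the 3 comparisons, 24 held without each library in turn, among them those of Snhg5, Nolc1, Nop56, Pspc1, Clk1, Pnisr, Meg3, Vax2os and Mir124-2hg in ONC/Ctrl and those of Meg3 and Pax6 in TPEN/ONC. The calls of Nhp2, Hnrnpa1, Tardbp and Smarca4 in ONC/Ctrl, of Clk1, Pnisr, Casc3 and Smarca4 in TPEN/ONC and of Sox2 in TPEN/Ctrl were each lost without any 1 of 5 or more libraries.

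**Figure D4:**
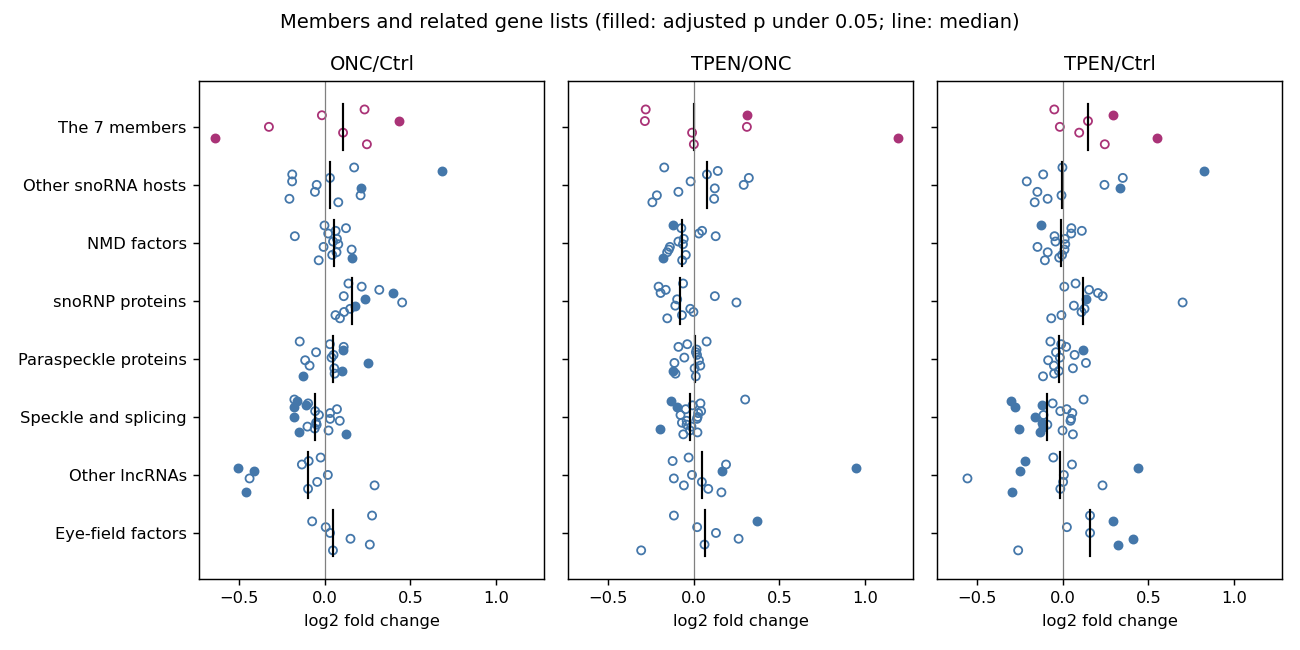
Log2 fold changes of the 7 members and of the tested genes of 7 related lists in ONC/Ctrl, TPEN/ONC and TPEN/Ctrl, 1 point per gene, filled at an adjusted p under 0.05, with the list median as a line. The members run from Snhg11 at -0.64 to Neat1 at 0.43 in ONC/Ctrl, and Meg3 is the filled point at 0.95 among the other long noncoding RNAs in TPEN/ONC.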

How the data were processed

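RNA was sequenced from cells sorted as RGCs in 9 libraries, 3 each of Ctrl, ONC and TPEN. Per the methods, a stranded mRNA kit with molecular identifiers was used and the authors mapped reads with STAR to GRCm38/mm10. The counting program, annotation, use of strand and collapse of identifiers are not given in the sources used here. The authors deposited RPKM per gene with exon length and position. They also deposited log2 fold changes, p-values and FDR from their own comparisons, and none of these was used. RPKM times length gave whole reads for all values (tolerance 0.01), so depth could be worked out. No 2 replicates agreed within sampling noise (mean chi-square over genes 2.30 to 5.20 by pair).

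Groups followed the sample titles. Levels were tested with limma 3.58.1 in R 4.3.3, with a trend of variance on mean, on log2(RPKM + 0.1) of all 9 libraries with 1 coefficient per group, leaving out genes whose mean was under 0.5 RPKM (13566 tested). Fold changes on this scale understate those of low genes. p-values were adjusted by Benjamini-Hochberg over all genes tested. Ratios were compared by exact permutation. On simulated ONC/Ctrl data of 13566 genes, 63 of 100 genes changed 1.5-fold, 90 of 100 changed 2-fold and 4 of 13366 unchanged genes were called. Named were all members, at most 5 called genes per related list (by size of change), the 2 genes nearest in pattern to each called member, and neighbouring and overlapping genes. Members and lists were chosen with earlier results of these data known. Positions and transcripts came from GENCODE M21 and promoters from RefSeq. Alternatives were another pseudocount, filter, scaling, voom on whole reads, only the libraries compared, a replicate block, each library left out and a 1.5-fold rule. Miat and Rmst were left out.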

Additional observations from a re-analysis of the deposited data

How the results depend on the processing

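Snhg11 was called under all 17 refits in each comparison, with adjusted p of at most 0.00365, and Malat1 in TPEN/ONC and TPEN/Ctrl, with adjusted p of at most 0.00450 and 0.00216. The 1.5-fold rule ended both Malat1 calls and that of Snhg11 in TPEN/Ctrl. The members called in ONC/Ctrl, 2 in the reported fit, were 4 under quantile normalization, 5 under voom and 1 under the 1.5-fold rule, and between 1 and 3 without single libraries. In TPEN/ONC they were 5 under voom and 1 under the 1.5-fold rule, and in TPEN/Ctrl the 1.5-fold rule left 0. Over all 13566 genes in ONC/Ctrl, quantile normalization called 1262 higher and 1428 lower. Voom called 1923 and 1291 in ONC/Ctrl, and 740 and 948 in TPEN/ONC. Without single libraries, 1258 to 1554 genes were higher and 667 to 909 lower in ONC/Ctrl. Among the members, quantile normalization added Malat1 and Six3os1 in ONC/Ctrl. Voom added Gas5, Snhg12 and Six3os1 there, and Gas5, Neat1 and Six3os1 in TPEN/ONC. The cause of these shifts was not tested.

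The levels showed no sign that the replicate numbers pair the samples (correlations of deviations between -0.0623 and 0.0268 for same-numbered libraries). How replicates were numbered is not given in the sources used here. With the replicate block, the members called were 3, 3 and 2 in ONC/Ctrl, TPEN/ONC and TPEN/Ctrl, with Gas5 added at adjusted p of 0.0398 and 0.0443.

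Uncalled values near 0 changed sign. In TPEN/ONC, Snhg12 was at 0.028 under quantile normalization, 0.00656 under median-ratio scaling and 0.000317 under voom, and without single libraries between -0.067 and 0.078. Without single libraries, Snhg1 ranged from -0.12 to 0.054 in TPEN/ONC and from -0.017 to 0.16 in TPEN/Ctrl. Gas5 ranged from -0.12 to 0.0071 and Six3os1 from -0.060 to 0.036 in TPEN/Ctrl. Without single libraries, exact permutation p ran from 0.00714 to 0.025 for Malat1/Neat1, from 0.00357 to 0.121 for Gas5/Snhg1, from 0.0143 to 0.104 for Gas5/Snhg12 and from 0.0214 to 0.107 for Six3os1/Six3. Adjusted over the 5 ratios, the highest were 0.0893, 0.152, 0.129 and 0.134. Leaving out libraries also moved the calls over all genes in TPEN/ONC, from 440 higher and 562 lower to as few as 247 and 279, while voom gave 740 and 948. In ONC/Ctrl, quantile normalization gave 1428 lower genes in place of 946, and in TPEN/Ctrl 452 in place of 680 were lower without Ctrl replicate 1. Over those refits, the calls among the proteins of speckles and splicing ran from 4 to 8 in ONC/Ctrl (6 reported), from 0 to 5 in TPEN/ONC (3 reported) and from 4 to 9 in TPEN/Ctrl (8 reported). Those among paraspeckle proteins ran from 1 to 6 in ONC/Ctrl (4 reported), those among eye-field factors from 0 to 4 in TPEN/Ctrl (3 reported), and those among decay factors from 0 to 4 in TPEN/ONC (2 reported). The other counts over the related lists lay within 2 of the reported ones.

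Snhg1 had 188 to 278 reads per library, and its 95% interval in ONC/Ctrl reached from -0.16 to 0.37. Spread did not follow read number throughout: Six3os1, with 273 to 403 reads, had a smaller residual SD (0.089) than Snhg12 (0.120), with 410 to 634.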
